A study of Mus musculus with 4 samples.

Results

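Transcripts of 9 inflammatory cytokine genes (Il1a, Il1b, Il1rn, Il18, Il15, Tnf, Il6, Il10 and Il12b) were followed in macrophages lacking Pparg. The genes were given by name, and every probe set that the platform annotation assigns to one of them was taken. The annotation held 10 such probe sets, of which 8 had values among the 10708 probe sets with values on the arrays. These 8 covered 7 genes, since Il10 was also represented by a control probe set. The probe sets of Il6 and Il15 were blank on all 4 arrays, and these genes were not analysed here.

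The samples were macrophages labelled PPARg KO (KO) and macrophages labelled PPARg WT (WT), with 2 arrays of each. Mice of both genotypes were of a mixed 129/SV and C57BL/6 background. They received 2.5 ml of 3% thioglycollate, an irritant that recruits monocytes to the peritoneum, and cells were collected by lavage 3 days later. Plated cells of both genotypes were washed after 5 h and then kept for 24 h in medium with 0.5% serum, with no ligand or microbial stimulus named. The labels give neither the age and sex of the mice, nor how or in which cells Pparg was deleted, nor whether arrays of the same genotype stem from different animals or cultures. The p-values may therefore measure technical spread alone.

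Interleukin-1 (IL-1) alpha and IL-1 beta, the products of Il1a and Il1b, bind the same receptor and start inflammatory signalling, while the product of Il1rn occupies that receptor without activating it. IL-1 beta and interleukin-18 are made as precursors that inflammatory caspases cut. Tumour necrosis factor, from Tnf, acts through its own receptors, and IL-12, whose larger subunit is encoded by Il12b, directs lymphocytes towards interferon production. Interleukin-10 restrains macrophage activation. Resting macrophages hold few transcripts of several of these genes and make them in quantity after microbial products activate NF-kB and related factors. PPARγ, the product of Pparg, is a nuclear receptor activated by lipids and is known for restraining inflammatory transcription in macrophages when a ligand is present.

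Values are signals in linear intensity units, means ± SD have n = 2, and log2 fold changes give KO minus WT after adding 16 to each signal, which understates changes of dim probe sets. Adjusted p-values come from limma and were adjusted by Benjamini-Hochberg over all probe sets of the fit, and a gene was called at an adjusted p under 0.05. Probe sets with a mean signal above 111 entered the fit, and those below it were taken from a second fit without this filter. Background was read from 12 antisense control probe sets. Their median lay at 111 and 107 on the KO arrays, against 104 and 116 on the WT arrays, and the highest of them at 150 and 144 on the KO arrays, against 144 and 157 on the WT arrays. Between 75.2% and 82.3% of the probe sets in the filtered fit were brighter than every antisense control on the same array. Pparg itself read 43.0 and 40.6 on the KO arrays, against 61.1 and 73.1 on the WT arrays, all below the antisense median.

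Promoter windows of 3 genes whose signals were lower in KO, Il1b, Tnf and Il1a, are shown for the sequence next to their transcription starts. Each runs from 250 bases before to 50 bases after the start annotated by RefSeq on GRCm38.p6, on the minus strand, 5′ to 3′. Capitals mark matches to the TATA box (TATAAA), the AP-1 site (TGANTCA), the core bound by the myeloid factor PU.1 (GAGGAA) and the C/EBP site (TTNNGNAAT), each searched on both strands.
Il1b, chr2:129371090-129371389: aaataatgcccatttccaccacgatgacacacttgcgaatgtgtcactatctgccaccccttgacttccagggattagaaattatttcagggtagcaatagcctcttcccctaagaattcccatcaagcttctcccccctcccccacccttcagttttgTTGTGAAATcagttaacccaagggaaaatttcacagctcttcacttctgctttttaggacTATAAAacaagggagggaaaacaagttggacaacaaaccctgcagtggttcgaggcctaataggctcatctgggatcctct
Tnf, chr17:35201958-35202257: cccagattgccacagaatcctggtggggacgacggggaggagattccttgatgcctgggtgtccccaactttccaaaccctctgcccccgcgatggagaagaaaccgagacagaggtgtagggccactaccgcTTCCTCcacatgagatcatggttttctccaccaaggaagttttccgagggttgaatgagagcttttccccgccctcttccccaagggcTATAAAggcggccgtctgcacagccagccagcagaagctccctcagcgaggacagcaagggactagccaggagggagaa
Il1a, chr2:129309923-129310222: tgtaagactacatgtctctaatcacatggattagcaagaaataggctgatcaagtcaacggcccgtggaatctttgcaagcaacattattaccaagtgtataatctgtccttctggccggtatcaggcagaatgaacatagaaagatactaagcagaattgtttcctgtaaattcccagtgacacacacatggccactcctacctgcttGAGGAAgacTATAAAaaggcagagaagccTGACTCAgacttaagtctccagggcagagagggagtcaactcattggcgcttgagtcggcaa
All 3 windows held TATAAA shortly before the start, at positions -31 to -26 in Il1b, -29 to -24 in Tnf and -32 to -27 in Il1a. TATAAA occurred in 13.6% of all 32851 promoter windows of the same length. Il1a also held the AP-1 letters (7.81% of all windows) and the PU.1 core (28.3%), Tnf the PU.1 core on the opposite strand, and Il1b the C/EBP letters (11.5%). The NF-kB consensus (8.46% of all windows) and the nuclear receptor half-site AGGTCA (16.3%) had no match in these 3 windows. Of the 7 member genes with a window, the NF-kB consensus matched in Il6, at -44 to -35, and AGGTCA in 1 of the 3 windows of Il1rn. These matches are letters in a window and say nothing about binding.

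The 7 cytokine genes with values fell into 3 genes with clear signal, 1 at the edge of background and 3 under it. Il1a, Il1rn and Tnf exceeded the highest antisense control on all 4 arrays. Il1b lay above the antisense median on both WT arrays and below it on both KO arrays, and never reached the highest antisense control. Il18, Il10 and Il12b lay below the antisense median on all 4 arrays. The mean was lower in KO for 5 genes (Il1a, Il1b, Il18, Tnf and Il12b) and higher for 2 (Il1rn and Il10), against 60.7% of all 7577 genes with a lower mean in KO. For each of the 7 genes KO and WT signals did not overlap, as for 34.5% of all genes.

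**Figure D1:**
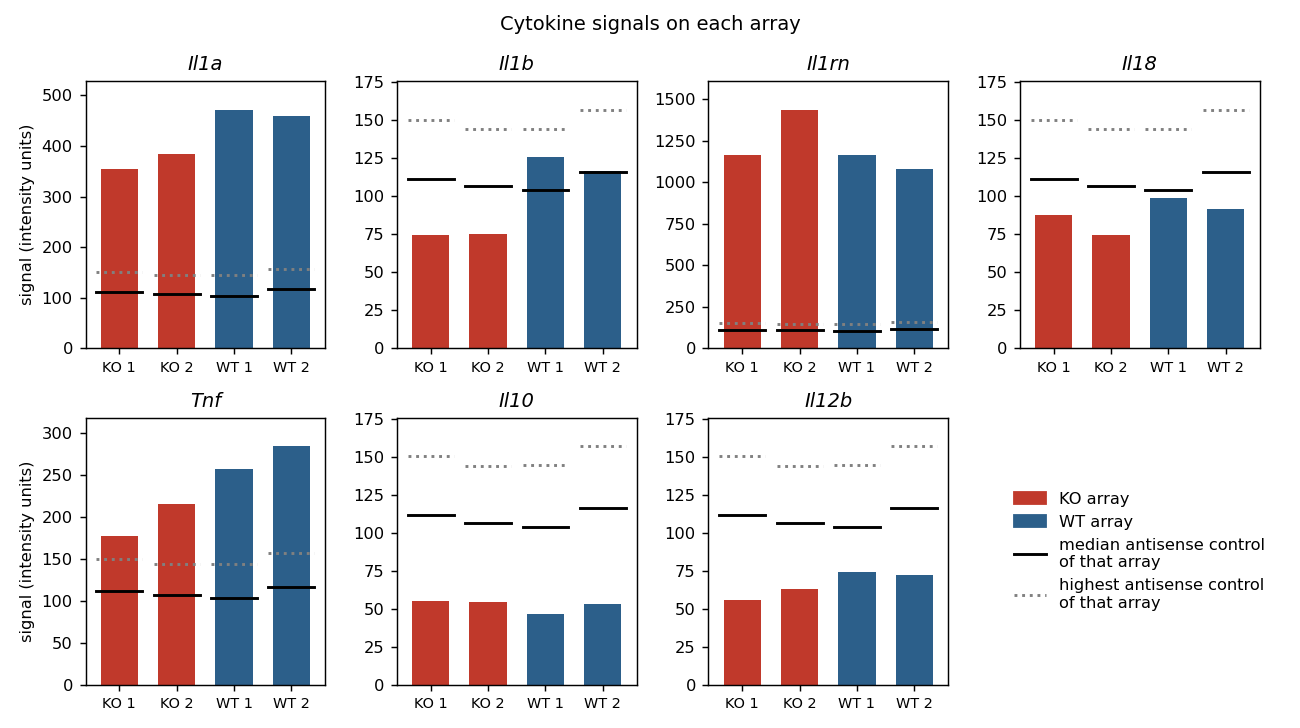
Signal (linear intensity units) of each cytokine gene on each array, with KO arrays in red and WT arrays in blue; a solid line marks the median and a dotted line the highest antisense control of that array. Il1a, Il1rn and Tnf stand above the dotted line on every array, Il1b is above the solid line on the WT arrays and below it on the KO arrays, and Il18, Il10 and Il12b stay below the solid line.

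Of these genes, 2 fell in KO, Tnf in the filtered fit and Il1b in the fit without a filter, and 0 rose. In the filtered fit, Tnf was 1 of 3 cytokine genes tested, where 3.78% of all 5001 genes were called and 2.72% were called lower. In the fit without a filter, Tnf and Il1b were 2 of 7, where 3.26% of all 7577 genes were called and 2.32% were called lower.

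Il1b, the gene of the secreted IL-1 form, read 74.6 and 74.8 on the KO arrays, against 125.5 and 116.6 on the WT arrays. Both KO values lay at least 41.8 units under the WT values, and the KO arrays differed by 0.2 units. The fitted log2 fold change, which rests on KO signals under the antisense median, was -0.59 (SE 0.11, 95% interval -0.81 to -0.38, limma adjusted p = 1.04e-05 without a filter). The KO signals were 0.670 and 0.701 times the antisense median of their array, and the WT signals 1.21 and 1.01 times. With the antisense median standing in for the KO signals, Il1b was 1.10-fold lower in KO. This is not a lower limit, because both WT signals lay under the highest antisense control of their array. The call held when any 1 array was left out (log2 fold changes from -0.64 to -0.55, limma adjusted p from 0.000442 to 0.0165), and was lost without variance moderation (limma adjusted p = 0.727).

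Tnf read 177.1 and 215.0 on the KO arrays, against 256.4 and 283.8 on the WT arrays. The groups did not overlap, and the gap of 41.4 units between them was close to the 37.9 units between the 2 KO arrays. Means were 196 ± 26.8 in KO and 270 ± 19.4 in WT, a log2 fold change of -0.44 (SE 0.12, 95% interval -0.66 to -0.21, limma adjusted p = 0.00695), or 1.35-fold lower in KO. Without KO replicate 1 the log2 fold change was -0.31 and limma adjusted p = 0.163. Without WT replicate 1 these were -0.51 and 0.206, and without WT replicate 2 they were -0.37 and 0.989. Without KO replicate 2 the gene was called (-0.57, limma adjusted p = 0.000132).

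Il1a, whose product acts as a precursor and at the cell surface, read 353.5 and 383.7 on the KO arrays, against 471.9 and 458.8 on the WT arrays. All 4 signals were at least 3.17 times the antisense median of their array, and the groups did not overlap. The log2 fold change was -0.32 (SE 0.14, 95% interval -0.59 to -0.06) and did not pass over all probe sets (limma adjusted p = 0.273).

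Il1rn, the gene of the IL-1 receptor antagonist, read 1162.9 and 1438.4 on the KO arrays, against 1162.1 and 1081.8 on the WT arrays. KO replicate 1 equalled WT replicate 1 to within 1 unit, KO replicate 2 was the highest of the 4 and WT replicate 2 the lowest. Means were 1301 ± 195 in KO and 1122 ± 56.8 in WT, a log2 fold change of 0.20 (SE 0.16, 95% interval -0.11 to 0.51, limma adjusted p = 0.930). Bright probe sets in general read higher on KO replicate 2 than on KO replicate 1: the median log2 difference was 0.21 in the top 10% by signal, and that of Il1rn was 0.30. The part of this array difference in the Il1rn result was not tested. After quantile normalization the log2 fold change was 0.26 and limma adjusted p = 0.0416, while the log2 fold change was 0.05 without KO replicate 2 and 0.15 without WT replicate 2. The mean of the antagonist gene was higher in KO where those of the agonist genes Il1a and Il1b were lower, and the difference between these genes was not tested.

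Il18 read 87.6 and 74.4 on the KO arrays, against 98.8 and 91.1 on the WT arrays. The highest of these was 0.952 times the antisense median of its array. The gene did not pass (limma adjusted p = 0.578 without a filter), and no fold change is given for it, Il12b or Il10 because both groups lay under background.

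Il12b read 55.7 and 63.2 on the KO arrays, against 74.0 and 72.0 on the WT arrays. The values did not overlap, and all 4 were between 0.500 and 0.713 times the antisense median. The gene did not pass (limma adjusted p = 0.333 without a filter). Il12a, which encodes the other IL-12 subunit, read 74.7 ± 0.919 in KO and 83.8 ± 6.72 in WT, also under the antisense median on every array.

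Il10 read 55.2 and 54.6 on the KO arrays, against 46.8 and 52.9 on the WT arrays, and all 4 were between 0.451 and 0.512 times the antisense median. The gene did not pass (limma adjusted p = 0.923 without a filter). The Il10 control probe set ran the other way, at 56.9 and 58.3 on the KO arrays, against 64.4 and 60.5 on the WT arrays, and it too lay below the antisense median everywhere. The 2 probe sets of this gene thus differed in which genotype read higher, at background level.

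**Figure D2:**
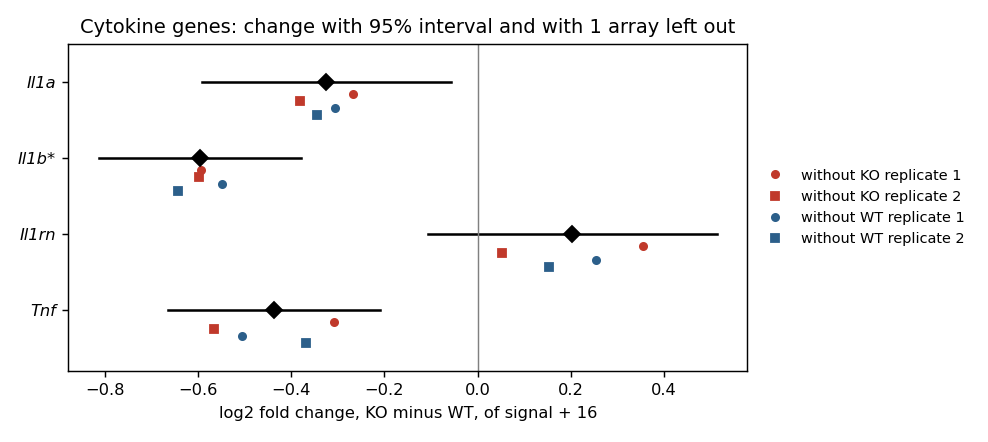
Log2 fold change (KO minus WT, of signal + 16) of the 4 cytokine genes above the antisense median on at least 1 array, with diamonds for all 4 arrays, lines for the 95% interval of the fit, and small symbols for the estimate with 1 array left out; an asterisk marks Il1b, below the signal filter and taken from the fit without it. The estimates for Il1b lie between -0.64 and -0.55, those for Tnf between -0.57 and -0.31, and those for Il1rn between 0.05 and 0.35.

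Genes that process, bind or transduce these cytokines, or limit their transcripts, were described from 6 lists. Of 102 listed genes 72 had values and 48 entered the filtered fit. There, 4 fell (Casp4, Il18bp, Il15ra and Jak2), 0 rose and 44 did not pass, which is 4 of 48 against 3.78% of all genes called. The median log2 fold change of the 48 was -0.10, against -0.02 over all 5001 genes, and 33 of the 48 had lower means in KO, against 57.7% of all genes in that fit.

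The IL-1 and interleukin-18 list had the largest change. Il18bp, a secreted protein that binds and neutralises interleukin-18, read 508.3 and 613.2 on the KO arrays, against 1003.6 and 1059.6 on the WT arrays. Both KO signals lay far below both WT signals, and the log2 fold change was -0.87 (SE 0.15, limma adjusted p = 1.31e-06), or 1.82-fold lower in KO. It missed the threshold without WT replicate 1 (limma adjusted p = 0.0969) or WT replicate 2 (0.214). Of the 6 list members in the filtered fit, 1 fell, where 2.72% of all genes were called lower, and 5 did not pass. The median of the 6 was -0.24. Among the 5 were the adaptor genes Myd88 (log2 fold change -0.29, limma adjusted p = 0.337) and Tab2 (-0.35, limma adjusted p = 0.0982). Without KO replicate 2 both passed (limma adjusted p = 0.00896 for Myd88 and 0.0173 for Tab2), and Tab2 also passed after quantile normalization (0.0416).

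Il1r1, the signalling receptor for both IL-1 forms, lay below the filter and is singled out after its values were seen. It read 112.5 and 122.1 on the KO arrays, against 68.7 and 66.9 on the WT arrays. The KO arrays were just above the antisense median and the WT arrays below it, and no array reached its highest antisense control. In the fit without a filter it rose (log2 fold change 0.67, SE 0.11, limma adjusted p = 2.14e-07). With the antisense median standing in for the WT signals, the group means differed by 1.06-fold. This is not a lower limit, because the KO signals also lay under the highest antisense control of their array. The signal of KO replicate 1 (112.5) was itself below the antisense median of WT replicate 2 (116). The call held with any 1 array left out (limma adjusted p from 7.34e-06 to 0.00197) and not without moderation (0.727). Il1r1 is also a gene of stromal cells, and 13 fibroblast and mesothelial markers with values are given beside it. Of these, 10 had higher means in KO, where 2976 of all 7577 genes did. An unadjusted limma p under 0.05 was found for 5 of the 13, against 10.1% of all genes without a filter. After adjustment 1 of the 13 rose without a filter, where 71 of all 7577 genes did. This was the proteoglycan gene Dcn (945.2 and 1059.7 in KO, 616.3 and 560.9 in WT). Its limma adjusted p was 1.37e-05 without a filter and 6.18e-05 in the filtered fit. Dcn missed the threshold without WT replicate 1 (limma adjusted p = 0.283) or WT replicate 2 (0.737). For 4 of the 13, all 4 arrays lay below the antisense median. The summed signal of the 13, which includes Dcn, ran from 3229 to 3606 in KO and from 2637 to 2691 in WT. Their part in the Il1r1 result was not tested, and in these bulk samples a change in cell number and a change in RNA per cell cannot be told apart. The decoy receptor gene Il1r2, the accessory chain gene Il1rap and the interleukin-18 receptor genes Il18r1 and Il18rap lay below the antisense median on all arrays.

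Among the processing genes, 1 of 8 fell, where 2.72% of all genes in the filtered fit were called lower. Casp4, which encodes the caspase (caspase-11 in mouse) that senses cytosolic lipopolysaccharide, read 196.3 and 223.4 on the KO arrays, against 291.6 and 280.0 on the WT arrays (log2 fold change -0.42, SE 0.12, limma adjusted p = 0.0130). It missed the threshold without KO replicate 1 (limma adjusted p = 0.110), WT replicate 1 (0.798) or WT replicate 2 (0.541). Casp1, the protease that matures IL-1 beta and interleukin-18, read 458.6 and 533.5 in KO, against 618.9 and 603.0 in WT. Its groups did not overlap, and it did not pass (log2 fold change -0.30, limma adjusted p = 0.463). Adam17, which sheds tumour necrosis factor from the membrane, read 118 ± 2.55 in KO and 110 ± 7.71 in WT. Its signals lay below the highest antisense control on every array, and that of WT replicate 2 below the antisense median. The calpain gene Capn1, whose family is linked to cutting the IL-1 alpha precursor, read 526 ± 78.2 in KO and 619 ± 55.3 in WT and did not pass.

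Receptor and kinase genes for the remaining cytokines included 2 of 12 that fell, where 2.72% of all genes in the filtered fit were called lower. Il15ra, the chain that presents interleukin-15, read 232.1 and 263.3 on the KO arrays, against 377.5 and 360.0 on the WT arrays (log2 fold change -0.55, SE 0.13, limma adjusted p = 0.000698), or 1.46-fold lower in KO. It missed the threshold without WT replicate 1 (limma adjusted p = 0.387) or WT replicate 2 (0.228). Jak2, a kinase used by the IL-12 receptor among others, read 104.0 and 129.7 on the KO arrays, against 177.6 and 181.4 on the WT arrays (log2 fold change -0.56, limma adjusted p = 2.60e-05). KO replicate 1 of Jak2 lay below the antisense median, and the call held with each array left out in turn (limma adjusted p from 1.08e-06 to 0.0286). The interleukin-10 receptor gene Il10rb was higher on both KO arrays (1475.3 and 1693.4) than on both WT arrays (1376.4 and 1219.0) and did not pass (limma adjusted p = 0.646). After quantile normalization it was called higher in KO (log2 fold change 0.35, limma adjusted p = 0.00390).

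Of 9 genes on the TNF receptor list, 0 passed the limma threshold and 3 had an unadjusted p under 0.05, where 9.50% of all genes in the filtered fit did. Tnfrsf1a, the main signalling receptor for tumour necrosis factor, read 505.4 and 619.8 in KO, against 662.4 and 769.1 in WT (log2 fold change -0.34, 95% interval -0.63 to -0.05, limma adjusted p = 0.305). It was called lower after quantile normalization (-0.31, limma adjusted p = 0.0353) and without KO replicate 2 (-0.49, 0.0145). Tnfrsf1b, the second receptor, read 1372 ± 130 in KO and 1475 ± 108 in WT. Of 7 regulators of cytokine mRNA, 0 passed in limma and 2 had an unadjusted p under 0.05. The brightest, Mapkapk2, a kinase that stabilises Tnf mRNA, read 977 ± 86.3 in KO and 1147 ± 27.6 in WT. The log2 fold change of this probe set was -0.23, and averaging the 2 probe sets of Mapkapk2 gave -0.12. Of 6 other cytokine genes in the filtered fit, 0 passed in limma and 1 had an unadjusted p under 0.05, with Tgfb1 at 951 ± 180 in KO and 810 ± 89.4 in WT. Without a filter, 13 of the 19 other cytokine genes with values lay below the antisense median on all 4 arrays, among them Ifng, Ifnb1, Il4 and Il17a.

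**Figure D3:**
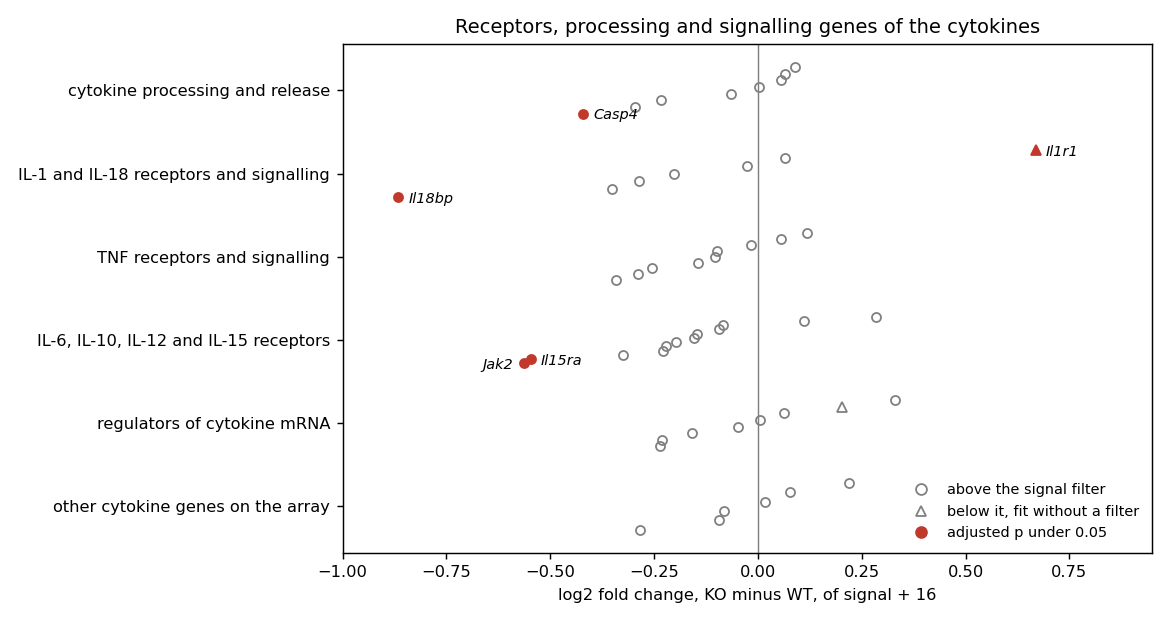
Log2 fold change (KO minus WT, of signal + 16) of the listed genes above the antisense median on at least 1 array, by list, with filled red symbols for an adjusted p under 0.05, circles for genes above the signal filter and triangles for genes below it. Il18bp, Jak2, Il15ra and Casp4 lie between -0.87 and -0.42, and Il1r1 lies at 0.67.

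Markers of macrophages and of other cells that a lavage can hold were read beside these results. All 10 macrophage markers were in the filtered fit. Their log2 fold changes had a median of 0.005, and 1 of the 10 fell, where 2.72% of all genes were called lower. This was the phagocytic receptor gene Mertk (143 ± 11.2 in KO and 230 ± 5.52 in WT, limma adjusted p = 1.34e-06). Neutrophils also make IL-1 beta. Of 11 neutrophil markers with values, 1 fell without a filter, where 2.32% of all genes were called lower. This was S100a8 (350.5 ± 27.9 in KO and 530 ± 17.9 in WT). Its limma adjusted p was 0.00100 without a filter and 0.00150 in the filtered fit. S100a9, which encodes its partner protein, lay below the antisense median on all arrays, as 4 of the 11 did. The brightest of the 11, Csf3r, which encodes the receptor for granulocyte colony-stimulating factor, read 465 ± 42.8 in KO and 448 ± 7.57 in WT and did not pass. The summed signal of the 11, which includes S100a8, ran from 1765 to 1833 in KO and from 1937 to 2036 in WT. Their median log2 fold change was -0.03 without a filter, as was that of all 7577 genes (-0.03). The part of these markers in the Il1b result was not tested. S100a8 missed the threshold without WT replicate 1 (limma adjusted p = 0.405) or WT replicate 2 (0.732). Of 12 T and NK cell markers, 8 B cell markers and 7 dendritic cell markers with values, 0 passed in limma, and 0, 0 and 1 of them had an unadjusted p under 0.05, where 10.1% of all genes did without a filter. For 8 of the 12, 3 of the 8 and 2 of the 7, all 4 arrays lay below the antisense median. Mast cell and basophil markers (0 of 6) and eosinophil markers (0 of 3) did not pass either, with 0 and 1 at an unadjusted p under 0.05. For 4 of the 6 and 2 of the 3, all 4 arrays again lay below the antisense median. Among the brightest members, Zap70 of T cells read 424 ± 56.9 in KO and 404 ± 42.1 in WT, Cd22 of B cells 259 ± 28.4 in KO and 265 ± 12.2 in WT, and Itgax of dendritic cells 907 ± 102 in KO and 978 ± 10.5 in WT. The mast cell protease gene Tpsb2 read 334 ± 18.1 in KO and 314 ± 17.2 in WT. The eosinophil granule gene Prg2 read 138 ± 9.40 in KO and 137 ± 4.24 in WT, below the highest antisense control on every array.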

How the data were processed

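Labelled cRNA made from 10 µg of total RNA of each of 4 samples was hybridised to a 1-colour Affymetrix array. The deposited values are intensities, 1 for each probe set on each array, and their range shows that they are linear; probe summary, background correction and scaling are not stated in the labels. The table had 12488 rows, of which 1780 were empty on every array and 59 held control values, which left 10649 probe sets. A single gene was annotated to 9389 of them, 9377 of which matched RefSeq's gene table by identifier. Log2 array medians differed by 0.05, so values were used as deposited.

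Probe sets above the 40th percentile of mean signal (6389, 5001 genes) were fitted with limma 3.58.1 in R 4.3.3 (lmFit, eBayes with an intensity trend, two-sided); a gene took its brightest probe set. The moderation gave infinite prior degrees of freedom: the spread used for a probe set is that of all probe sets of similar signal, and a more variable gene is called too readily. On simulated data for 2 KO with 2 WT arrays over 6389 probe sets, the fit recovered 100% of changes of 1 and 63% of changes of 0.5 on the log2 scale, with 3 false calls among 166; the simulation shares the pooled spread of the fit.

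The cytokine genes, lists, motifs and tests were chosen with earlier results of these data known. Named beside the cytokine genes and Pparg are list genes that passed, the brightest of each pathway list and the brightest of each marker list in which none passed; Il1r1, Csf3r, Casp1, Tnfrsf1a, Adam17, Il12a, Myd88, Tab2 and genes named as below background were chosen after their values were seen. Plots used matplotlib 3.10.9 (Python 3.11.15). Promoter sequences are RefSeq's.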

Additional observations from a re-analysis of the deposited data

How the results depend on the processing

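Of 6389 probe sets, 232 were called, 67 of them higher in KO (28.9%). Quantile normalization called 426, of which 172 were higher (40.4%), the replicate number as a block 486, and limma without moderation 0, with 391 at an unadjusted p under 0.05. Leaving out 1 array gave 57 to 330 calls, with 75 without WT replicate 1 and 57 without WT replicate 2. The share called higher in KO was 50.8% without KO replicate 1 (130 of 256), 13.0% without KO replicate 2 (43 of 330), 25.3% without WT replicate 1 and 12.3% without WT replicate 2. Of the cytokine genes in the filtered fit, 1 was called. This became 2 after quantile normalization, which added Il1rn, and 2 with the replicate block, which added Il1a (limma adjusted p = 0.0136). It was 2 with no filter, where 7 genes rather than 3 were tested, and 0 without moderation (limma, 1 at an unadjusted p under 0.05). With 1 array left out it ran from 0 to 1, at 0 without KO replicate 1, WT replicate 1 or WT replicate 2. Of the partner genes, 4 were called, against 8 after quantile normalization, 12 with the block (among them Casp1 at a limma adjusted p of 0.0403, Tnfrsf1a at 0.0120, Myd88 at 0.0333 and Tab2 at 0.00350), 0 without moderation (limma, 6 at an unadjusted p under 0.05) and 1 to 8 with 1 array left out. The partner count was 8 without KO replicate 2 and 1 without either WT array. The causes were not tested. The numbers are shared labels and no stated pairing: deviations of same-numbered arrays correlated at 0.42 over tested probe sets, and the labels do not say what a number marks. The direction held under the alternatives run for the 7 cytokine genes with values, Pparg and the partner and marker genes given with a fold change or a call. It reversed for 5 marker genes near no change. With 1 array left out, log2 fold changes ran from -0.0672 to 0.197 for Zap70, from -0.136 to 0.0741 for Cd22, from -0.224 to 0.00200 for Itgax, from -0.0573 to 0.0674 for Prg2 and from -0.0424 to 0.139 for Csf3r. With averaged probe sets they were -0.00740 for Zap70 and -0.0645 for Csf3r. The alternatives also included median centring, eBayes run robustly or without the trend, pseudocounts of 1 and 64, a filter at the 60th percentile, averaging the probe sets of a gene and, chosen after seeing the data, a filter on the mean log2 value (227 calls). With an array left out, the single array of that genotype takes its spread from the other pair. Signals under the antisense controls limit what Il18, Il10 and Il12b can show.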
